A study of Mus musculus with 2 samples.

Results

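The messenger RNAs of 1 gene can stop at several places, and the data described 359 protein_coding genes of the mouse cortex whose annotated transcripts stop far apart. The genes were chosen by read counts and annotation together. Each had at least 2 known transcripts (annotated in GENCODE M21) with 20 or more reads summed over both libraries, and the outermost annotated 3′ ends of these transcripts lay more than 500 bases apart on mm10. They were 359 of the 11989 protein_coding genes with a read on a known transcript. Of all such genes, 906 had at least 2 transcripts with 20 reads, and in 760 these transcripts had different annotated ends. Long-read RNA sequencing had been applied to total RNA of the left cerebral cortex from adult mice of the inbred strain B6NCrl at 6 months of age, with no treatment named. There was 1 group with 2 libraries, 1306424 reads in replicate 1 and 1304133 reads in replicate 2, and no conditions to compare. The labels name a male in 1 field and give sex as not collected in another. The labels number the libraries as biological replicates 1 and 2, but both tissue samples carried 1 donor record. The spread between the libraries may therefore be technical, and the p-values below set 2 libraries against counting noise. All 24 marker genes listed for cortical neurons, glia, vessels and neighbouring regions had reads in both libraries, though some had few. The lowest in replicates 1 and 2 were Slc32a1 with 3 and 2, Clic6 with 1 and 3 and Kl with 2 and 1. Of the excitatory neuron markers, Slc17a7 had 130 and 36 reads and Nrgn 698 and 197, while Camk2a had 390 and 691. In bulk tissue, fewer cells of a type and less RNA per cell cannot be told apart.

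The files tie reads to introns rather than to ends. Among protein_coding genes, 702 chains of introns belonged to 2 or more annotated transcripts that differ in start or end only. Reads were listed for 269 of these chains, and for 0 of them on more than 1 transcript. The introns of the leading transcripts on the distal and proximal side differed in all of the 359 genes but 1, Ank2, whose leading transcripts have no intron and do not overlap. For a transcript with introns, the count is therefore the count of reads with those introns. Its 3′ end is the end that the annotation gives to them. Whether the reads themselves stopped there is not in these counts, so the shares below are shares of transcripts with distal and proximal annotated ends, not measured use of the ends. Where the last introns differ, the counted introns do fix the last exon. Some other qualifying transcripts have no intron, and no introns tie their reads to an end. Among them are the distal transcript of Rbbp6, the proximal transcript of Serbp1 and Prkcb-208.

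The 3′ end of a messenger RNA forms when a protein complex reads a short signal in the new RNA, cuts the RNA a little downstream and adds a tail of adenosines. The signal is most often the hexamer AATAAA in DNA letters, and ATTAAA is its commonest variant. A gene with tandem signals in its last exon makes the same protein with a shorter or longer 3′ untranslated region (UTR), where microRNAs and RNA-binding proteins bind. A gene with signals in different last exons makes proteins with different carboxyl ends. Neurons are known for long 3′ UTRs, which act in RNA stability, localization and local translation.

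Up to 30 bases around the hexamer near each annotated end are shown, because the hexamer marks where an end can form. They are given for genes whose ends lie in different last exons, and for Aldoc as an example of tandem ends. Some stretches stop short of the annotated end. Each sequence is the strand of the gene 5′ to 3′ from the annotated transcripts of GENCODE M21, with the hexamer in capitals and the mm10 position before it.
Ntrk2-201, distal, chr13:59133938-59133967, plus strand: tgtcttacAATAAAtaacatcttccacaag
Ntrk2-202, proximal, chr13:58936999-58937027, plus strand: aacaagccAATAAAgttttatgattcatc
Cdc42-202, distal, chr4:137319703-137319732, minus strand: tcagatgtATTAAAcaaacaaaacccttca
Cdc42-201, proximal, chr4:137321768-137321797, minus strand: attttgaaATTAAAaatatacaattgtttg
Acbd6-201, distal, chr1:155691295-155691324, plus strand: tatttatcAATAAAtctcaaatcccagttc
Acbd6-202, proximal, chr1:155572260-155572288, plus strand: ataagccgAATAAAccctttgctctccga
Pnkd-201, distal, chr1:74353654-74353683, plus strand: aggcgctcAATAAAtgttgaatgaatgatt
Pnkd-204, proximal, chr1:74287418-74287447, plus strand: caaatgcaAATAAAgttattaagtactgac
Aldoc-201, distal, chr11:78327736-78327765, plus strand: ttaactaaAATAAAattaatcacatagtag
Aldoc-202, proximal, chr11:78326730-78326759, plus strand: acatagcaAATAAAtgagagcaaaacacag
These 10 ends were shown because each carried a hexamer, and many other ends did not. In tandem genes, 87 of 235 proximal ends held one, and in genes with a last exon of their own 17 of 22 did. In Cdc42 both ends held the variant, and in the other 4 genes both ends held the canonical form.

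Distances between the outermost ends ran from 511 to 1050042 bases, with a median of 1872 and quartiles of 981 and 3958.5. They were over 10000 bases in 52 genes and up to 2000 bases in 192. Most genes, 282, had 2 qualifying transcripts, 61 had 3, 10 had 4, 5 had 5 and 1 gene had 6. Reads on these transcripts ran from 42 to 18343 a gene over both libraries, with a median of 196. The ends of each gene were split at the widest gap into a distal and a proximal side, and the distal share is the part of the gene's qualifying reads on the distal side. The genes fell into 6 structures by the leading transcript of each side. In 235 genes, 65.5%, both ends lay in 1 last exon with the same start, here called tandem. In 64 genes the proximal transcript ended by running on from an internal exon of the distal transcript into the intron. In 24 genes the last exons overlapped but began at different places, and in 22 genes the proximal end lay in a last exon of its own within an intron of the distal transcript. The proximal end fell inside an internal exon in 8 genes, and the transcripts did not overlap at all in 6.

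**Figure D1:**
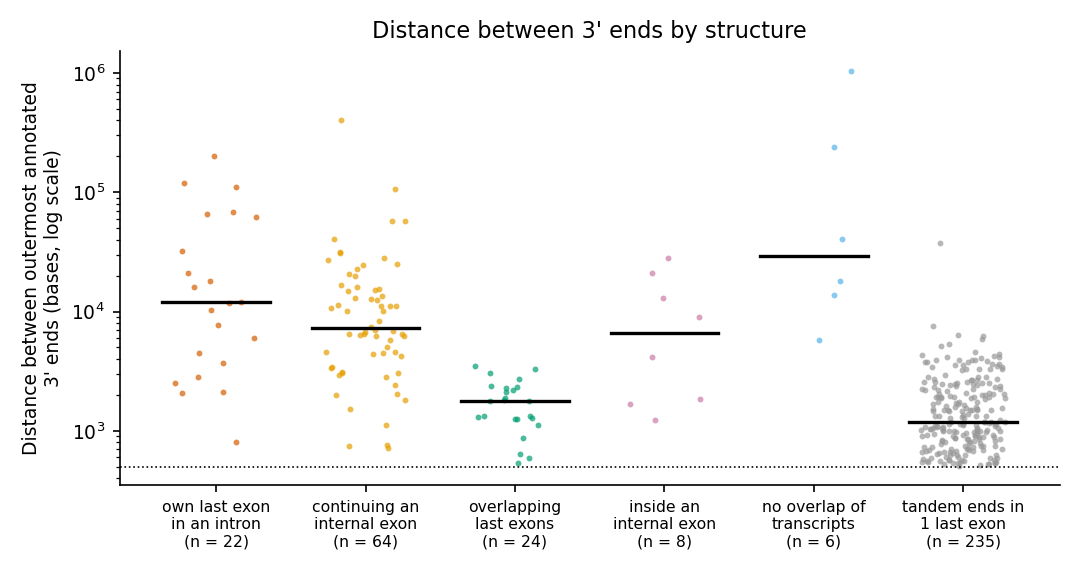
Distance in bases between the outermost annotated 3′ ends of each gene (log axis) for the 6 structures, with 1 point per gene, a bar at the median and a dotted line at the 500 bases that chose the genes. Tandem ends lay closest, with a median of 1177 bases, and genes with a last exon of their own had a median of 11999 bases.

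Structure was defined by last exons and distant ends, which bear on shared stop codons and on UTR length by construction. Of the 235 tandem genes, 157 had the same stop codon in both leading transcripts, both of them protein_coding with annotated ends. Their median 3′ UTR was 1889 bases in the distal and 350 bases in the proximal transcript, and in 82 of the 157 the distal UTR was over 5 times as long. Outside the tandem structure, 64 genes had complete protein_coding transcripts on both sides, and in 52 of these the stop codons differed. The distal protein was the longer in 42 of the 52 and the proximal one in 8. The median length was 358 amino acids for the distal and 227.5 for the proximal proteins, and in 12 genes the proximal protein had under 50% of the distal length. In 28 of the 52, the longer protein had most reads in both libraries. Across all 359 genes, the distal leading transcript was protein_coding in 348 and the proximal one in 253. The remaining proximal transcripts were 63 of the retained_intron type, 27 processed_transcript and 16 nonsense_mediated_decay, annotation types for RNAs not expected to make a full protein.

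The distal side held most reads in most genes. The median distal share was 68.2% in replicate 1 and 68.2% in replicate 2, and it was over 50% in 259 genes in replicate 1 and in 249 in replicate 2. Averaged over the libraries, 66 genes had a distal share of at least 90%, 189 lay from 50% to 90%, 93 from 10% to 50% and 9 below 10%. By structure, median shares in replicates 1 and 2 were 70.1% and 71.4% for tandem ends, 68.0% and 63.9% for ends that continue an internal exon, and 51.5% and 48.0% for ends in a last exon of their own. They were 64.1% and 64.2% for overlapping last exons, 82.3% and 80.2% for proximal ends inside an internal exon, and 50.6% and 72.4% for the 6 genes whose transcripts do not overlap. Since a minimum of reads on both sides chose the genes, genes with nearly all reads on 1 side enter only at high counts, and these medians describe the chosen genes. Across the 357 genes with reads in both libraries, the distal shares of the libraries had a Pearson r of 0.870 (Spearman's rho 0.888), where genes are not replicates. The median absolute difference was 5.09 percentage points over these genes, and 2.77 points over the 178 genes with at least 200 reads.

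The 22 genes with a last exon of their own included several whose 2 forms are textbook cases. In 21 of the 22 the 95% Clopper-Pearson intervals of the 2 libraries overlapped. Overlap is easily met where reads are few, as for Rundc3a and Ppm1b in replicate 2, and is no test of equal shares. Ntrk2 (ENSMUSG00000055254.15, chromosome 13, 58806639 to 59133970) encodes TrkB, the receptor for brain-derived neurotrophic factor. Its distal transcript, Ntrk2-201, encodes the full-length receptor of 821 amino acids with the kinase domain, and Ntrk2-202 and Ntrk2-204 encode the truncated receptor of 476, which lacks it. The distal transcript had 23 reads in replicate 1 and 19 in replicate 2, against 112 and 118 reads on the proximal side, and the ends lay 200850 bases apart. The distal share was 17.0% (interval 11.1 to 24.5) in replicate 1 and 13.9% (8.56 to 20.8) in replicate 2, so the truncated form had most reads in both libraries. The 3′ UTRs differed little in length, 5617 bases for Ntrk2-201 and 4967 for Ntrk2-202, but the whole transcripts had 8744 and 6846 bases, and how read length affects their counts was not tested.

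Cdc42 (ENSMUSG00000006699.17, chromosome 4, 137319696 to 137357720) encodes a small GTPase that directs actin assembly and neuronal polarity. Both transcripts encode 191 amino acids and differ at the carboxyl end. The proximal one, Cdc42-201, encodes the form known mainly from brain, and Cdc42-202 the form found in most tissues. Distal reads numbered 220 in replicate 1 and 280 in replicate 2, and proximal reads numbered 295 and 275. The distal share was 42.7% (interval 38.4 to 47.1) and 50.5% (46.2 to 54.7), so the brain form led in replicate 1 and the forms were near even in replicate 2. This difference did not pass the test between libraries (adjusted p = 0.138, Fisher's exact test over 760 genes). Lamp2 encodes a membrane protein of lysosomes with 3 forms. Lamp2-201, whose form acts as receptor in chaperone-mediated autophagy, had 48 reads in replicate 1 and 46 in replicate 2, Lamp2-203 had 21 and 28, and the proximal Lamp2-202 had 27 and 26.

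Glial genes stood among the same 22. Gfap, the intermediate filament of astrocytes, had 54 reads in replicate 1 and 38 in replicate 2 on the distal Gfap-201, which encodes its main form of 430 amino acids. The proximal Gfap-202, which encodes the delta form with another carboxyl end, had 13 reads in replicate 1 and 7 in replicate 2, and the distal share was 80.6% in replicate 1 and 84.4% in replicate 2. Mobp, a myelin protein gene of oligodendrocytes, had 264 distal reads in replicate 1 and 149 in replicate 2, against 28 and 24 proximal reads. Its leading distal transcript, Mobp-204, is annotated as nonsense_mediated_decay with a reading frame of 81 amino acids, and the proximal Mobp-201 encodes 170. The distal transcripts therefore led in both glial genes.

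Other genes of this structure turned to the proximal side. Olfm1, a secreted neuronal glycoprotein, had 158 distal reads in replicate 1 and 70 in replicate 2, against 618 and 194 proximal reads. Its proximal side joined Olfm1-205, a processed_transcript with 492 reads in replicate 1 and 181 in replicate 2, and the protein_coding Olfm1-203 of 153 amino acids with 126 and 13. Acbd6, which binds acyl-CoA, had ends 119042 bases apart and nearly even counts, 69 distal and 77 proximal reads in replicate 1, and 47 and 61 in replicate 2. Ak6, an adenylate kinase gene whose locus also makes the transcription factor subunit Taf9, had 19 and 24 distal against 111 and 162 proximal reads in replicates 1 and 2. Dnajc19, a cochaperone of the mitochondrial protein import motor, had 17 and 15 distal against 91 and 136 proximal reads in replicates 1 and 2. Polr1d, a subunit shared by RNA polymerases I and III, lay between, with 97 and 86 distal against 116 and 120 proximal reads in replicates 1 and 2. In all, the distal share was above 50% in both libraries in 9 of the 22 genes and below 50% in both in 9.

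Cytoskeletal and synaptic genes belonged to this structure too. Tpm3, a tropomyosin, had 57 and 52 distal against 14 and 18 proximal reads in replicates 1 and 2, and Sept8, a septin, had 96 and 64 against 33 and 27. The synaptic vesicle gene Syngr1 had 40 distal and 34 proximal reads in replicate 1, and 18 and 39 in replicate 2, and its difference did not pass the test (adjusted p = 0.139, Fisher's exact test). Rundc3a had 160 distal and 89 proximal reads in replicate 1 but 4 and 3 in replicate 2. Ppm1b, a protein phosphatase, had 22 and 23 in replicate 1 but 0 and 1 in replicate 2, so replicate 2 said little about either gene. Ccl27a had 187 and 190 distal against 41 and 35 proximal reads in replicates 1 and 2, but near-identical chemokine genes exist beside it and its reads cannot be tied to 1 copy.

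**Figure D2:**
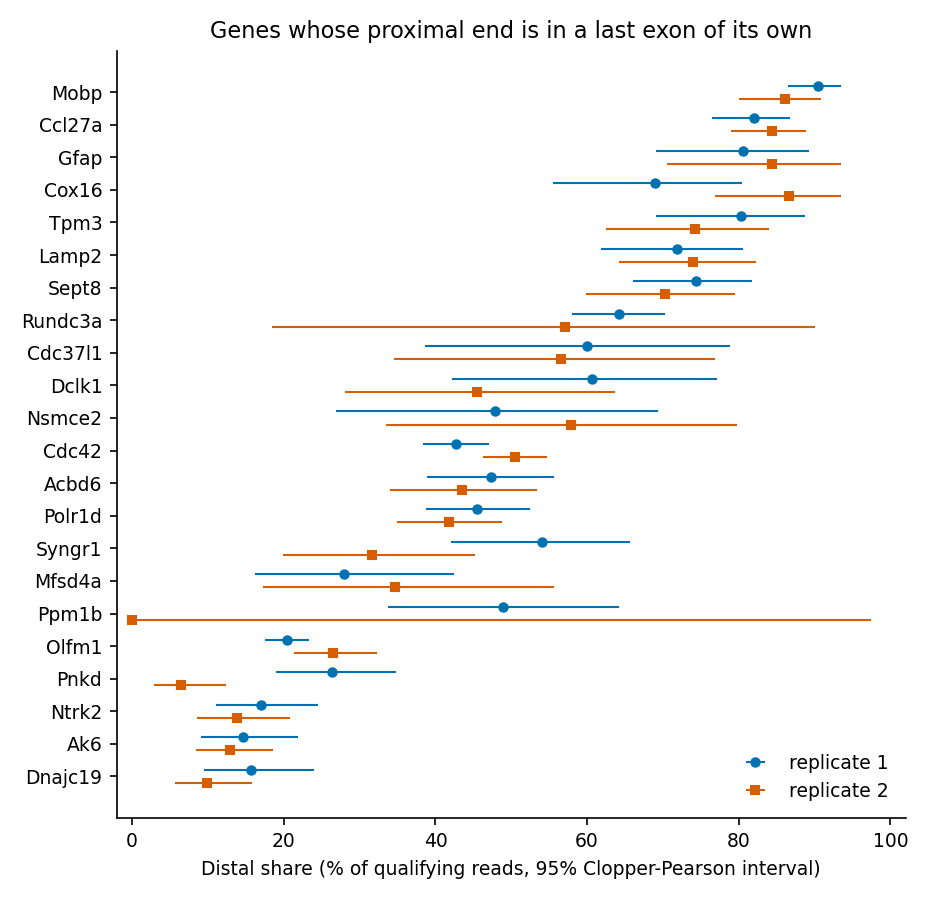
Distal share in percent of qualifying reads for the 22 genes whose proximal end lies in a last exon of its own, in replicate 1 (circles) and replicate 2 (squares), with 95% Clopper-Pearson intervals that cover counting error only. Shares ran from 12.8% for Dnajc19 to 88.3% for Mobp as means of the libraries, and the intervals of Pnkd did not overlap.

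In the 64 genes whose proximal transcript continued an internal exon into the intron, the proximal transcript was protein_coding in 29, of the retained_intron type in 30 and of another type in 5. The distal share was above 50% in both libraries in 38 genes and below 50% in both in 13. Ptn, which encodes the secreted growth factor pleiotrophin, had 364 distal reads in replicate 1 and 409 in replicate 2, against 174 and 195 proximal reads. Its distal share was 67.7% in both libraries, with a distance of 24530 bases, and the proteins had 168 and 156 amino acids. Pmm1, a phosphomannomutase, had 560 and 537 distal against 25 and 23 proximal reads in replicates 1 and 2. Dnajb6, a chaperone of protein aggregation, was the other way round, with 24 and 5 distal against 274 and 313 proximal reads in replicates 1 and 2. The proximal Dnajb6-203 encodes the shorter protein of 242 amino acids and the distal one 365. Its distal shares of 8.05% in replicate 1 and 1.57% in replicate 2 differed by less than 10 points (adjusted p = 0.00406, Fisher's exact test).

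In Camkk2, Slc1a2, Tpm1 and Serbp1, all named from the lists, most reads lay on the distal side in both libraries. Camkk2, a kinase that activates other calcium-dependent kinases, had 170 and 65 reads in replicates 1 and 2 on the distal transcript of 588 amino acids, against 12 and 10 on the proximal one of 216. Slc1a2, the main glutamate transporter of astrocytes, had 72 and 45 distal against 15 and 17 proximal reads in replicates 1 and 2, with 572 and 561 amino acids in the distal and proximal protein. Tpm1, another tropomyosin whose proximal transcript is a processed_transcript, had 179 and 154 distal against 22 and 4 proximal reads in replicates 1 and 2. Serbp1, an RNA-binding protein whose proximal transcript is of the retained_intron type, had 200 and 172 distal against 24 and 11 proximal reads in replicates 1 and 2.

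Retained introns made up most of the rest of this structure. Syt1, the calcium sensor of synaptic vesicle release, had 18 and 20 distal against 279 and 183 proximal reads in replicates 1 and 2, and the ends lay 401563 bases apart. The proximal Syt1-204 is of the retained_intron type and is annotated without a protein. Syn2, a synaptic vesicle phosphoprotein, had 79 distal and 283 proximal reads in replicate 1, and 1 and 14 in replicate 2, again with a retained_intron transcript on the proximal side. Atp2b2, a calcium pump of the plasma membrane that is also on the list of transporters, led on the distal side in replicate 1 and on the proximal side in replicate 2. It had 28 and 20 distal against 16 and 22 proximal reads in replicates 1 and 2. Cst3, a secreted protease inhibitor and the gene with most reads of the 359, has a processed_transcript on the proximal side and stood at the other extreme with 10752 and 7570 distal against 7 and 14 proximal reads in replicates 1 and 2.

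The 6 genes without overlap of the leading transcripts had the highest median distance, 29257 bases, and no shared stretch in their leading transcripts. In Ank2, the ankyrin of axons, both leading transcripts are of the retained_intron type, with 50 and 40 distal against 18 and 20 proximal reads in replicates 1 and 2. Rbbp6, itself a factor of 3′ end formation, had 11 and 11 distal against 33 and 15 proximal reads in replicates 1 and 2.

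Tandem ends held many abundant genes and several of the brain genes best known for alternative 3′ UTRs, but their reads were told apart by introns elsewhere in the transcript. In 65 of the 235 one leading transcript lacked introns at its 5′ side, in 72 the first intron was another one, and in 98 an intron differed elsewhere. Gria2, a subunit of AMPA glutamate receptors, had 62 distal reads in replicate 1 and 48 in replicate 2, against 61 and 62 proximal reads. Both transcripts encode 883 amino acids, with a 3′ UTR of 7268 bases in the distal and 923 in the proximal transcript. The shares of 50.4% in replicate 1 and 43.6% in replicate 2 therefore compare splice forms to which the annotation gives a long and a short UTR. Mapt, which encodes tau, had 200 and 152 distal against 21 and 18 proximal reads in replicates 1 and 2, with UTRs of 3903 and 32 bases. Rab6a, which acts in Golgi traffic, had 724 and 738 distal against 9 and 18 proximal reads in replicates 1 and 2.

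Among the genes with most reads and at least 10% on each side, metabolism and translation were represented. Aldoc, the brain aldolase, had 1776 and 1669 distal against 272 and 217 proximal reads in replicates 1 and 2, with the same protein of 363 amino acids and UTRs of 1427 and 406 bases. Eif4a2, an RNA helicase of translation initiation, had 778 and 1060 distal against 280 and 357 proximal reads in replicates 1 and 2, and its proximal transcript ends at the stop codon without a UTR. Atp5g1, a subunit of the ATP synthase, had shares of 64.2% and 64.5% from 465 and 479 distal against 259 and 264 proximal reads in replicates 1 and 2. Rpl5, a ribosomal protein gene, had 189 and 286 distal against 260 and 327 proximal reads in replicates 1 and 2, and its proximal transcript is of the retained_intron type. Arpp19, a phosphatase inhibitor, had 209 and 202 distal against 334 and 273 proximal reads in replicates 1 and 2.

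Of the 157 tandem genes with a shared stop codon, 104 had most reads on the distal side by the mean of the libraries. Ppp3ca, the catalytic subunit of calcineurin, was among the exceptions, with 111 and 83 distal against 730 and 308 proximal reads in replicates 1 and 2. Its adjusted p was 0.00849 by Fisher's exact test, but the shares of 13.2% and 21.2% differed by less than the 10 points a call required. Zcchc18 had 17 and 15 distal against 357 and 355 proximal reads in replicates 1 and 2, and the clathrin light chain gene Cltb had 76 and 54 against 242 and 200. The most even tandem genes with at least 200 reads, besides Gria2, were Ost4, a subunit of oligosaccharyltransferase, with 55 and 63 distal against 43 and 67 proximal reads in replicates 1 and 2, and Slc3a2, the heavy chain of amino acid transporters, with 94 and 90 distal against 111 and 99 proximal reads.

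A hexamer stood in the last 40 bases of 260 of 359 distal ends, 72.4% (95% Clopper-Pearson interval 67.5 to 77.0), and of 145 proximal ends, 40.4% (35.3 to 45.7). The ends of other protein_coding genes with qualifying transcripts held one in 4241 of 5580 cases, 76.0% (74.9 to 77.1), by the same search for AATAAA or ATTAAA on the gene's strand. A window of the same length 200 bases farther upstream held one in 4.74% of distal and 2.23% of proximal transcripts, and in 4.34% of those of other genes. The search found letters and not sites, and an end without a match may use another signal. Among proximal ends, 115 of 237 complete protein_coding transcripts had a hexamer, 48.5% (42.0 to 55.1), and 30 of 122 transcripts of other types or with a missing end, 24.6% (17.2 to 33.2). In 8 of the 237 the annotated 3′ UTR had 3 bases or fewer, all in tandem genes, and 0 of these had a hexamer. In genes with a last exon of their own, 19 of 22 distal and 17 of 22 proximal ends carried one, and in tandem genes 164 of 235 distal and 87 of 235 proximal ends did. The proximal ends inside an internal exon had none in 8.

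**Figure D3:**
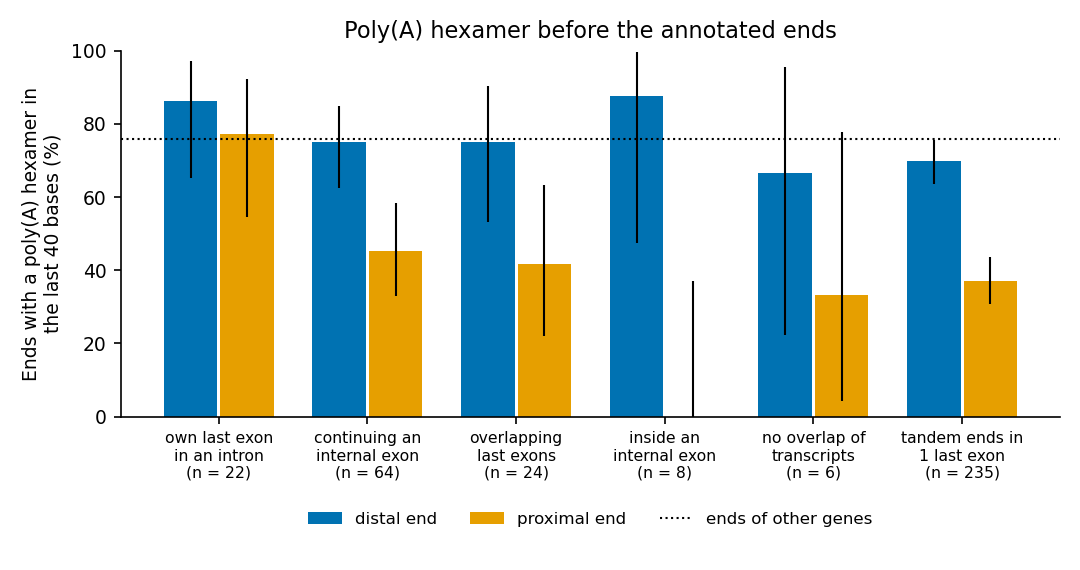
Percent of annotated ends with AATAAA or ATTAAA in the last 40 bases, for distal (left bars) and proximal (right bars) leading transcripts of each structure, with 95% Clopper-Pearson intervals, and a dotted line at 76.0% for other genes. Proximal bars lie below the line except for last exons of their own, at 77.3%.

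Where an RNA holds a run of adenosines, a primer made to pair with the tail can pair with the run instead. An apparent end then lies just before the run. The 20 bases after the proximal end could be read in 265 genes, where the distal transcript runs on through them. At least 12 of the 20 were A in 21 genes, 5 of 97 with a hexamer and 16 of 168 without. The mean A content was 27.7% in these bases and 26.6% in the exon that holds them. Bases after distal ends were not read here, and the part of such priming in the annotated ends was not tested.

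Models outside the annotation gave a second count of reads by listed end. TALON, the program that classed the reads, lists spliced models that match part of an annotated intron chain or hold new introns. Of 5270 such models of the 359 genes in replicate 1, 76.2% were listed as ending exactly at an annotated end, and 75.4% of 5257 in replicate 2. Only 69 and 66 models ended 1 to 200 bases away from one, so the listed ends are not raw read ends. How they were set is not given in the sources used here. Neither likeness nor difference between these models and the known transcripts therefore shows where the RNAs ended. Reads of these models fell within 100 bases of a qualifying end of both sides in 118 genes, of the distal side alone in 86, of the proximal side alone in 116 and of neither in 39.

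In genes with a last exon of their own, both kinds of model mostly pointed to the same side. In the 12 such genes with at least 10 outside reads near the ends, the median distal share was 65.4% by outside models and 66.5% by known transcripts, with a Pearson r of 0.677 across genes, and 10 of the 12 had both shares on the same side of 50%. Cdc42 had 73 and 77 distal against 107 and 103 proximal outside reads in replicates 1 and 2, Olfm1 had 5 and 0 against 58 and 64, and Gfap had 22 and 8 against 2 and 0. Pnkd and Tpm3 were the exceptions. Pnkd had 8 and 1 distal against 1 and 2 proximal outside reads in replicates 1 and 2, and Tpm3 had 8 and 6 against 10 and 9. In the structures that follow, the shares by outside models and by known transcripts lay further apart. For ends that continue an internal exon, the median over 41 genes was 92.6% by outside models and 61.2% by known transcripts, with an r of 0.138. For overlapping last exons, the medians over 11 genes were 0% and 68.5%, with an r of -0.15. In 167 tandem genes the median distal share was 10% by outside models and 72.4% by known transcripts, with an r of 0.249. Aldoc had 24 and 11 distal against 148 and 227 proximal outside reads in replicates 1 and 2, Mapt had 0 and 0 against 93 and 99, and Snap25 had 253 and 221 against 0 and 2. The outside share was at most 10% in 84 of the 167 genes and at least 90% in 59, so most had nearly all outside reads listed at 1 end. Models of a single read gave a like median of 6.90% in 88 genes. The points share libraries and the annotation, and the r values are descriptions.

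**Figure D4:**
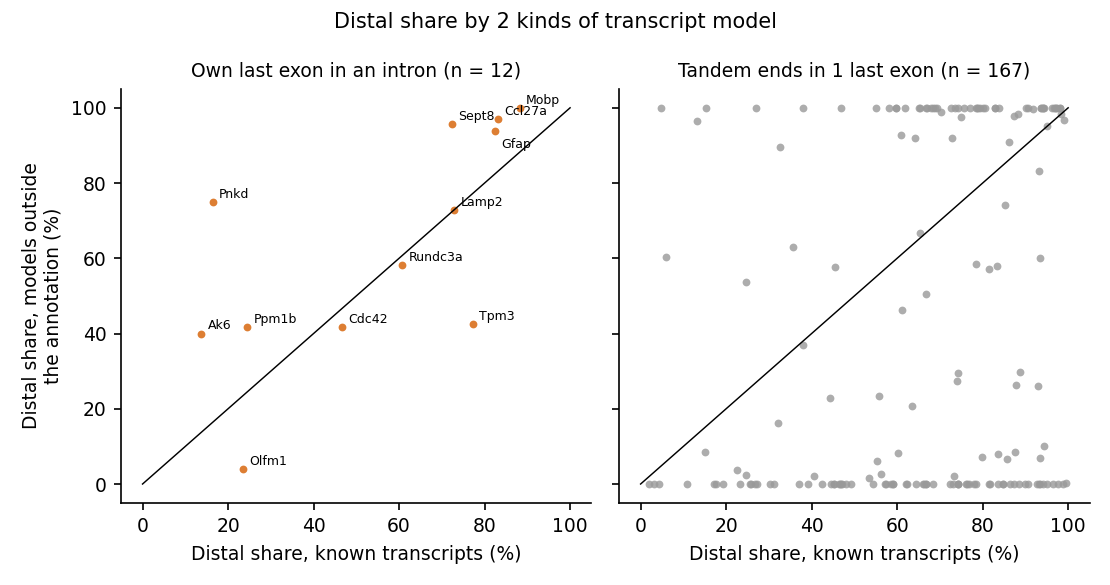
Distal share in percent by models outside the annotation (y axis, both libraries summed) against the share by known transcripts (x axis, mean of the libraries), 1 point per gene with at least 10 outside reads near its ends, with the line of equal shares. Of the 12 genes with a last exon of their own, 10 lie on the same side of 50% on both axes, and the 167 tandem genes lie mostly near the bottom (84 at 10% or less) or near the top (59 at 90% or more).

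Between the libraries, 15 of the 359 genes had a distal share that differed by at least 10 points at an adjusted p under 0.05 (two-sided Fisher's exact test, adjusted by Benjamini and Hochberg's method over all 760 genes). Over the 760 genes, 31 were called, 4.08%, and the 359 genes held about that share. The distal share was higher in replicate 1 in 10 of the 15 and lower in 5. Of the 359 genes, 61 had an unadjusted p under 0.05 in Fisher's exact test, and the matching count over all 760 genes is not given here. Rnf208, a ubiquitin ligase gene, had 39 distal and 118 proximal reads in replicate 1, against 53 and 2 in replicate 2. Its distal share was 24.8% (interval 18.3 to 32.4) in replicate 1 and 96.4% (87.5 to 99.6) in replicate 2, a difference of -71.5 points (adjusted p = 4.93e-20, Fisher's exact test). In the other direction stood Ube2j2, a ubiquitin-conjugating enzyme of the endoplasmic reticulum, with 39 distal and 8 proximal reads in replicate 1, against 1 and 12 in replicate 2. Its share was 83.0% and 7.69%, a difference of 75.3 points (adjusted p = 5.38e-05, Fisher's exact test).

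Prkcb, a calcium-dependent protein kinase C, had the lowest adjusted p, 5.72e-26 by Fisher's exact test, with a distal share of 27.7% in replicate 1 and 78.2% in replicate 2. The 3 transcripts show which reads differed. Prkcb-201, of 671 amino acids and a distal end, had 45 reads in replicate 1 and 2 in replicate 2, and the proximal Prkcb-202, of 673 amino acids, had 379 and 32. Prkcb-208, an unspliced transcript of the retained_intron type with 955 bases and the distal end, had 100 and 113. Both coding forms, known as beta I and beta II, were therefore fewer in replicate 2, while the retained_intron transcript was not. The chemokine gene Cxcl12 had 6 distal and 44 proximal reads in replicate 1, against 22 and 19 in replicate 2, and Chordc1, a cochaperone, had 40 and 39 in replicate 1, against 44 and 9 in replicate 2.

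Pnkd, a gene named for a paroxysmal movement disorder, was the called gene with a last exon of its own. Its distal share was 26.4% (interval 19.0 to 34.8) in replicate 1 and 6.50% (2.85 to 12.4) in replicate 2, from 34 and 8 distal against 95 and 115 proximal reads in replicates 1 and 2. Its distal protein has 385 and its proximal protein 142 amino acids, and the ends lie 66230 bases apart. Of the called genes, Cbx6 and C2cd2l had a count of 0 on the distal side in replicate 2. Cbx6, a Polycomb protein, had 30 distal and 34 proximal reads in replicate 1, against 0 and 32 in replicate 2, and a count of 0 allows up to 3 reads, or 9.38% of the 32. C2cd2l had 25 distal and 11 proximal reads in replicate 1, against 0 and 13 in replicate 2, which allows up to 23.1%. Metap2, a methionine aminopeptidase, had 54 and 79 reads in replicate 1, against 24 and 103 in replicate 2. Wbp2 had 378 and 136 in replicate 1, against 98 and 97 in replicate 2. Srxn1, an antioxidant enzyme, had 28 and 16 in replicate 1, against 4 and 17 in replicate 2. Hmgb1, Ube2b, Wsb2 and Mrps26 were the other called genes, with differences from -14.4 to 20.0 points.

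Base composition differed between the sides in most called genes. In 8 of the 15, the side with the higher share in replicate 1 had the leading transcript with the higher GC content in its richest 100 bases, in 2 the lower, and in 5 the values were equal. In Rnf208 the peak was 69% in the distal and 80% in the proximal transcript, in Prkcb 59% and 80%, in C2cd2l 83% and 62%, and in Wsb2 88% and 60%. The matching count over all genes is not given here. The side with the higher share in replicate 1 had the longer leading transcript in 10 of the 15. The distal leading transcript was the longer in 333 of the 359 genes. The count of 10 can therefore hardly tell length from the distal side, whose share was higher in replicate 1 in 10 of the 15. The part of base composition or of length in the calls was not tested. Among the 93 genes whose distal transcript had a peak at least 5 points above the proximal one, the median difference in share was 1.15 points, and it was 0.27 points among the 37 with a peak at least 5 points below.

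**Figure D5:**
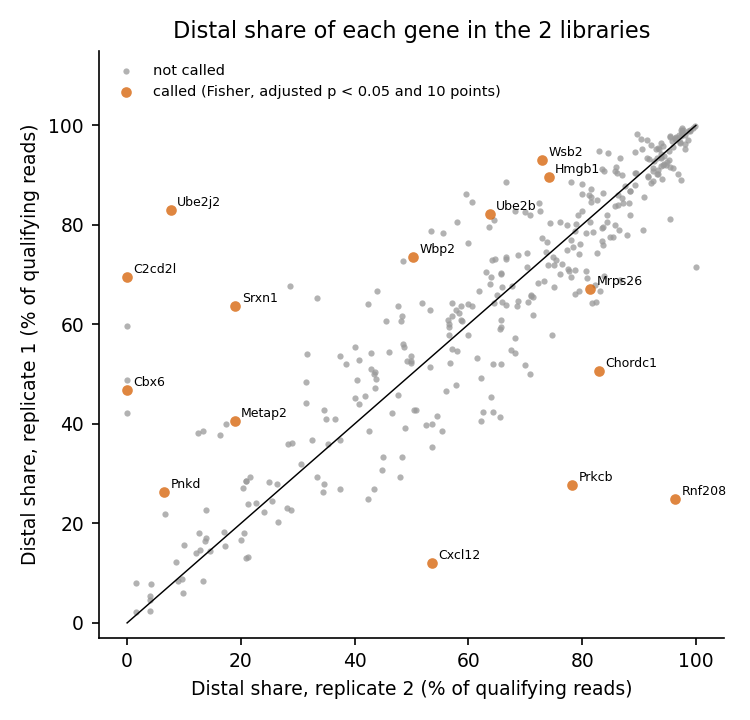
Distal share in percent of qualifying reads in replicate 1 (y axis) against replicate 2 (x axis) for the 357 genes with reads in both libraries, with the line of equal shares. The 15 called genes are named, 10 above the line and 5 below it, and most other genes lie near the line.

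Of the 359 genes, 24 were called by their gene counts, with a ratio between the libraries of 2 or more and an adjusted p under 0.05 in an exact binomial test. The background was 835 of 11838 genes tested, 7.05%, and the 359 genes held about that share. Of the 24, 21 were higher in replicate 1 and 3 lower, and the directions of all 835 are not given here. The median log2 ratio of replicate 1 to replicate 2 was 0.0191 over the 359 genes and -0.0025 over all genes tested. Hras, a small GTPase of growth signalling, had 336 gene reads in replicate 1 and 39 in replicate 2, a log2 ratio of replicate 1 to replicate 2 of 3.09. Only 4 distal and 4 proximal qualifying reads were left to it in replicate 2, against 151 and 136 in replicate 1, so its even share there rests on 8 reads. Nkx6-2, an oligodendrocyte transcription factor, had 79 reads in replicate 1 and 10 in replicate 2 (log2 ratio 2.92). Hnrnpab, an RNA-binding protein, had 158 and 26 (2.58), with 0 qualifying reads in replicate 2. Rnf146, a ubiquitin ligase gene, was lower in replicate 1, with 25 and 107 reads (-2.08). Wbp2, Ube2j2 and Rnf208 were called in both share and gene count.

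Short lists of genes by function, which are samples and not whole classes, were set beside the 359 genes. Genes such as Atp5g1, Cox16, Rnf208 and Ube2j2 stand on none of them. Over all genes with 2 or more qualifying transcripts, 359 of 906, 39.6%, had ends over 500 bases apart. Of the listed genes known for alternative 3′ ends, 9 of 14 did, among them Rab6a, Cdc42, Mapt, Tpm1, Ntrk2, Gria2, Tpm3 and Ank2. Synaptic vesicle and release genes had 6 of 9, among them Snap25, the SNARE protein, with 2982 and 2504 distal against 326 and 180 proximal reads in replicates 1 and 2. Cytoskeletal genes had 8 of 15, kinases and phosphatases 7 of 12, small GTPases and their regulators 4 of 8, and glia and myelin genes 8 of 17. The listed genes of mitochondria and energy had 3 of 17, namely Aldoc, Tpi1 and Eno2, and the listed ubiquitin genes had 6 of 14, with Rbx1 at 413 and 501 distal against 38 and 24 proximal reads in replicates 1 and 2 and Ube2d3 at 104 and 81 against 63 and 58. RNA-binding proteins had 6 of 13, and transcription and chromatin genes 5 of 10, with Mef2c, a neuronal transcription factor, at 121 and 159 distal against 90 and 74 proximal reads in replicates 1 and 2. Postsynaptic genes had 2 of 4 and endocytosis genes 4 of 9, with Pacsin1 at 279 and 294 distal against 103 and 96 proximal reads in replicates 1 and 2. Calcium-binding genes had 4 of 8, with Ncald at 313 and 247 distal against 55 and 52 proximal reads in replicates 1 and 2, and channels and transporters 5 of 12, with Vdac1, the mitochondrial porin, at 778 and 732 against 53 and 48 in the same libraries.

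The factors that cut and tail RNA were measured in the same libraries. Levels here are CPM, counts scaled to a library of 1000000 reads, which are not divided by gene length and rank no gene against another. Of 26 cleavage and polyadenylation factors, 24 had reads on a known transcript, and 0 of 25 tested were called between the libraries by the exact binomial test, with 3 at an unadjusted p under 0.05. Of these, Pabpc1, which binds the tail, had an adjusted p of 0.0123 in the exact binomial test at a log2 ratio of -0.49, with 119 CPM in replicate 1 and 168 CPM in replicate 2. The highest count in the list was that of the phosphatase gene Ssu72, with 300 reads in replicate 1 and 342 in replicate 2. Nudt21, the subunit of cleavage factor I that recognizes UGUA and is known to favour distal sites, had 69.7 CPM in replicate 1 and 71.3 CPM in replicate 2. Cstf2 and its brain-rich relative Cstf2t, which bind downstream of the cut, had 23.0 and 55.9 CPM in replicate 1 and 20.7 and 75.9 CPM in replicate 2. The poly(A) polymerase gene Papola had 58.2 CPM in replicate 1 and 54.4 CPM in replicate 2. Pcf11, which links cutting to the end of transcription, reached 16.8 CPM in replicate 1 and 18.4 in replicate 2. Among 28 regulators of site choice tested, 3 were called, beside 7.05% of all genes tested. Khdrbs1 was higher in replicate 1, with 147 reads against 66 in replicate 2 (log2 ratio 1.15). Mbnl1, with 41 reads in replicate 1 and 84 in replicate 2 (-1.03), and Elavl2, with 17 and 55 (-1.67), were lower in replicate 1. Elavl3 and Elavl4, neuronal proteins known to favour long 3′ UTRs, had 64.3 and 121 CPM in replicate 1 and 69.8 and 132 CPM in replicate 2.

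Genes on either side of the 500 bases had distal shares in the same range. Distal shares are given for replicates 1 and 2. Just inside lay Llph at 511 bases (82.0% and 88.3%), Atg10 at 513 (63.9% and 66.7%), Ap3s1 at 523 (55.1% and 57.1%), Slc39a7 at 527 (80.5% and 58.1%) and Zfyve21 at 530 (74.3% and 82.7%). Just outside lay Dpm2 at 498 bases (81.9% and 85.8%), Ubl3 at 494 (86.6% and 92.8%), Nell2 at 483 (60.7% and 59.1%), Ntsr2 at 481 (78.7% and 76.5%) and Apex1 at 477 (85.1% and 76.2%).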

How the data were processed

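The values deposited by the authors are counts of whole reads per transcript model and library, without normalization. Per the file headers, other columns hold exon numbers and model lengths as other values, and the deposited annotations give positions on mm10 with GENCODE M21 features and models added by TALON. The sources used here do not give the aligner, the version of TALON, the library kit or its strand. The 359 genes, the gene lists and the rule for named genes were chosen with earlier results of these data known. That rule takes genes of most reads with 10% on each side, the longest distances, the most even shares, the largest called differences, textbook genes, the leading members of each list and the genes next to 500 bases. Genes outside it were named by structure after their values were seen, and some genes that it names are not reported here.

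Ends were split at the widest gap, and a tie took the most distal gap. Distal and proximal reads were set against each other by library with Fisher's exact test, two-sided, over 760 genes, called at an adjusted p under 0.05 and 10 points. Gene counts with at least 10 reads in total were compared by an exact binomial test against the library totals, called at 2-fold with 0.5 reads added. Both tests were also run on simulated counts with known changes, which held counting noise alone. Intervals are 95% Clopper-Pearson intervals, and with the limit of 3 reads for a count of 0 they cover counting error only. Replicate 1 had 1306424 reads and replicate 2 had 1304133. A hexamer was searched in the last 40 bases of a transcript. With 1 group and 2 libraries no model across replicates was fitted, and edgeR 4.0.16 and DESeq2 1.42.0 supplied scaling factors alone. Python 3.11.15, pandas 2.3.3, numpy 2.4.6, scipy 1.17.1, matplotlib 3.10.9 and R 4.3.3 were used. Protein sequences and a genome sequence were not used here.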

Additional observations from a re-analysis of the deposited data

How the results depend on the processing

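The number of genes followed the read minimum: 658 with 10 reads a transcript and 114 with 50, against 359, and with 20 reads in 1 library alone it was 145 to 173. It was 271 with 10 reads in each library, 434 and 262 with ends over 250 and 1000 bases apart, and 242 with complete protein_coding transcripts. The median distal share of 68.2% became 65.9% for the most distal end against all others, 67.3% with all known transcripts, 67.5% with all spliced models and 64.0% with complete protein_coding transcripts. It was 68.2% in either library alone. Of the alternatives for calls between the libraries, no minimum difference gave 24 genes and a minimum of 50 reads gave 7, against 15. At least 20 points gave 10, the most distal end and all known transcripts 15 each, and a chi-square test over transcripts 16. Chosen after seeing the data, genes outside the tandem structure had 8 calls and a median share of 64.0%, complete protein_coding transcripts gave 7 calls, 6 of them among the 15, and 10 reads in each library gave 15. The canonical hexamer alone stood at 55.7% of distal and 30.9% of proximal ends, and a window of 60 bases gave 75.2% and 42.6%. Gene count calls stayed at 24 with TMM factors, DESeq2 size factors and no count filter. Shares of structures moved within their intervals when every pair of transcripts was weighted by reads. With all spliced models, the distal shares of 30 of 85 named genes moved by more than the spread between libraries and 4 crossed 50%, with Prkcb at 9.93%, Rnf208 at 32.4%, Hras at 29.1% and Dclk1 at 42.3%. For the most distal end alone, 7 moved, and among those that crossed 50% the share fell to 1.29% for Eif4a2, 24.9% for Lamp2, 40.5% for Pacsin1, 34.6% for Serbp1 and 47.5% for Tpm1. With complete protein_coding transcripts, Olfm1 was at 70.0%, Prkcb at 8.25% and Serbp1 at 37.9%. This setting left out the processed_transcript of Olfm1 and the retained_intron transcripts of Prkcb and Serbp1. The new shares of these genes follow from the reads of the transcripts that remained, and for Serbp1 the remaining ends were split anew. The retained_intron transcript of Prkcb is unspliced, so the spliced models lack it too. The cause of the other moves was not tested. No paired analysis was possible because the libraries form a single group. Depth limits genes with few reads in 1 library, and the counts cannot show where a read ended.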
